A study of Mus musculus with 30 samples.

Results

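The 10 genes described here are members of the circadian clock, and they were taken by name: Clock, Arntl, Per1, Per2, Per3, Nr1d1, Nr1d2, Dbp, Tef and Hlf. All 10 were found among the 21820 protein-coding gene symbols measured, and all 10 passed the filter on low counts in each comparison. RNA-seq gave their transcript levels in 14 libraries of mouse brain cells, and open chromatin at their loci was mapped by ATAC-seq, which maps DNA accessible to a transposase, in 10 libraries. Acutely isolated endothelial cells (ECs) were sorted as GFP-positive cells from the brains of adult male Tie2-GFP mice, in which an endothelial promoter drives GFP, and GFP-negative cells of such mice served as the non-endothelial sample (2 RNA-seq libraries each). The 6 WT culture libraries held brain ECs of adult male mice that had been grown for 8 days, with puromycin against other cells in the first days only. WT cultures 1 and 2 came from C57BL/6J mice by isolation method A, and cultures 3 to 6 came by method B from Ctnnb1flex3/+;Tie2-GFP mice, which carry the allele for stabilization but no Cre and had also received 4-hydroxytamoxifen. The 4 stabilized culture libraries of RNA-seq came from adult male Ctnnb1flex3/+;Pdgfb-CreER;Tie2-GFP mice. In such mice 4-hydroxytamoxifen given to the pups lets an endothelial Cre remove exon 3 of the beta-catenin gene. RNA-seq replicates 1 and 2 of these cultures came by method A, and 3 and 4 by method B. In ATAC-seq, stabilized cultures 1 and 2 and WT cultures 3 to 6 came by method B, and only WT cultures 1 and 2 by method A. For WT cultures 5 and 6 the sources used here differ on the method, since the methods text gives B and a legend gives A. The methods text was followed, because its genotype for method B wells is the one recorded for these wells, and the comparisons by method below rest on that choice. Cultures 3 and 4 of WT were sequenced for 150 cycles per read at another facility, and the other cultures for 36 cycles. The sorted cells were read as single reads of 75 cycles and the cultures as paired reads, so read type and culture cannot be told apart. For the cultures, brains of several mice were pooled per preparation, and replicates of a culture are wells, 2 per experiment, so p-values measure in part the spread between wells. The records give no time of day of collection. In pooled cells such as these, fewer cells of a type and less RNA per cell cannot be told apart.

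The mammalian clock is a loop of transcription and translation that runs in nearly every cell with a period of about a day. CLOCK and ARNTL (BMAL1) form a dimer that binds E-boxes and activates the Per and Cry genes, whose proteins return to the nucleus and inhibit the dimer. The same dimer activates Nr1d1 and Nr1d2, whose products (REV-ERB alpha and beta) repress Arntl, and Dbp, Tef and Hlf, the PAR bZIP factors that act at D-boxes of output genes. In living animals Dbp, Per3 and Nr1d1 transcripts rise and fall steeply over the day and Clock transcripts vary little, and glucocorticoids, serum and changes of medium can shift the clocks of cultured cells.

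The sorted cells and cultures were checked against defining markers. The summed TPM (a transcript level corrected for transcript length and library depth) of 6 endothelial markers was 1662 to 1748 in acutely isolated ECs, 698 to 1912 in WT cultures, 936 to 3261 in stabilized cultures and 4.44 to 17.0 in GFP-negative cells. The markers did not move alike. Kdr (176 and 172 TPM) and Tek (119 and 217 TPM) in acutely isolated ECs lay above every WT culture (28.4 to 55.5 and 8.45 to 42.7 TPM). For Pecam1 (344 and 380 against 214 to 932 TPM), Cdh5, Erg and Cldn5 the groups overlapped. The summed TPM of 4 pericyte markers was 244 to 354 in acutely isolated ECs, 222 to 446 in GFP-negative cells, 2.25 to 4.80 in WT cultures and 3.14 to 12.4 in stabilized cultures, with Rgs5 as the main contributor in the sorted cells. Markers of neurons (16.9 to 36.5, mainly Stmn2), oligodendrocytes (28.3 to 30.5) and erythrocytes (4751 to 31511) were also higher in acutely isolated ECs than in WT cultures (2.37 to 8.29, 0.200 to 1.27 and 0 to 1.39). Smooth muscle markers, led by Acta2, summed to 116 to 140 in acutely isolated ECs and 162 to 1000 in WT cultures. The astrocyte sum was 1.13 to 9.99 in acutely isolated ECs and 0.132 to 2.52 in WT cultures, the microglia sum 0.376 to 3.61 and 0.129 to 4.47, and the fibroblast sum 0.580 to 6.65 and 2.76 to 21.7. No marker of these lists was at 0 in both acutely isolated libraries, Mog and Alas2 were at 0 in every culture, and the part of these cells in the values below was not tested. Library depth was 24284843 to 94686456 estimated counts. Mitochondrial genes took 24.2% and 14.9% of the counts of GFP-negative libraries 1 and 2, 11.2% and 10.6% of those of acutely isolated libraries 1 and 2, and 0.667% to 2.58% of those of the cultures. Hemoglobin genes took 0.329% and 2.13% of acutely isolated libraries 1 and 2.

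Clock factors act through short sites, many of them near gene starts. The windows shown here were chosen because each holds a match to at least 1 of the 5 motifs below, or, for Dbp, because the gene varied most between sorted libraries. Each runs 5′ to 3′ on the gene's own strand from 250 bases before to 50 bases after a RefSeq transcription start (GRCm38.p6). Capitals mark matches on either strand to 5 motifs. These are E-box CACGTG, E′-box CACGTT, D-box TTATGNAA, TNGGTCA for the core of the REV-ERB/ROR element, and the cyclic AMP element CRE TGACGTCA. N is any letter, so TNGGTCA is a loose pattern, and a REV-ERB/ROR core here means only a match to it. The E-box and E′-box differ only in their last letter and no site was counted for both.
Per1, chr11:69098699-69098998, plus strand (E-box and D-box): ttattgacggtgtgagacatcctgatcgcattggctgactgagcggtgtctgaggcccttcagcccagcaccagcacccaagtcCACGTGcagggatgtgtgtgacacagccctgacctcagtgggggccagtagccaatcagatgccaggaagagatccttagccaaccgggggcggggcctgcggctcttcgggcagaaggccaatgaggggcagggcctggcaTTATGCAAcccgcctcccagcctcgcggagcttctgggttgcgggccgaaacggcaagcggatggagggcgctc
Tef, chr15:81802423-81802722, plus strand (E-box): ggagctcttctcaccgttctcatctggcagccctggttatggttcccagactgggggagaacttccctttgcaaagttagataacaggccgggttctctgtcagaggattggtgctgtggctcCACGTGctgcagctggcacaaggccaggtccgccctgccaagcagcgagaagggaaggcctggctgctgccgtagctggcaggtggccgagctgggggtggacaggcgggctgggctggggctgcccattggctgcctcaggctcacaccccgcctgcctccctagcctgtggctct
Nr1d1, chr11:98775328-98775627, minus strand (E′-box): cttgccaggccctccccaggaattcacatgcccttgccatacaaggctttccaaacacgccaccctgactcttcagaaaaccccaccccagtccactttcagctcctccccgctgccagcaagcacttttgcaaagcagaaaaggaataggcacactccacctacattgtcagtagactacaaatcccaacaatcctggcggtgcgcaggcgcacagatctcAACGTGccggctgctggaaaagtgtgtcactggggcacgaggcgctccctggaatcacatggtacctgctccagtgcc
Per3, chr4:151044616-151044915, minus strand (2 D-boxes and 1 REV-ERB/ROR core): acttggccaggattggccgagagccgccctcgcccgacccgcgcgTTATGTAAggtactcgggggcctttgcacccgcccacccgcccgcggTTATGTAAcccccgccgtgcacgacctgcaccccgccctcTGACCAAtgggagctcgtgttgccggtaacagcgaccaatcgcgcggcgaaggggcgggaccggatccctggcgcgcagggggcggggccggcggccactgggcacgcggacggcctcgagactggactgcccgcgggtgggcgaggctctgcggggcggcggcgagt
Arntl, chr7:113207261-113207560, plus strand (3 REV-ERB/ROR cores): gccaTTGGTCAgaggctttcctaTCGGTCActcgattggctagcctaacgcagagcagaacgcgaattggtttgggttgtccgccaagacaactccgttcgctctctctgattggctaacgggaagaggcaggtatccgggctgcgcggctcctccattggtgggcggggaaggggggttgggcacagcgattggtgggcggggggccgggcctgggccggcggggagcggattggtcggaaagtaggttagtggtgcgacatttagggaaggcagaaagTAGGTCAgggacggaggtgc
Hlf, chr11:90390868-90391167, minus strand (CRE): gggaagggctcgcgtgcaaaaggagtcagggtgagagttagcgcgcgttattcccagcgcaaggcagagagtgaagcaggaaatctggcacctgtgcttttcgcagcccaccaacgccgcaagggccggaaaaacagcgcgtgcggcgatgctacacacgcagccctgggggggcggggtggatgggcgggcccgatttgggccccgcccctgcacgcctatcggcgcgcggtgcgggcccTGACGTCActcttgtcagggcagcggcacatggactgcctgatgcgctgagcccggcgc
Dbp, chr7:45704997-45705296, plus strand (none of the 5): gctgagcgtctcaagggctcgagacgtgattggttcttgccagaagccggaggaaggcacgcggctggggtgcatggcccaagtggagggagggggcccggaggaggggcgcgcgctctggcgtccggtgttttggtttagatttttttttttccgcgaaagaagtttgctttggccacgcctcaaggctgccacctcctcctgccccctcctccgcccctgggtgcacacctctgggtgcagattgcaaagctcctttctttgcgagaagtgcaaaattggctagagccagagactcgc
The table of promoters held 14 windows for 9 of the 10 genes, and Per2 was not among them. An E-box was in 3 of the 14 windows (1 of Per1 and both of Tef) and in 7.15% of all 32851 promoter windows of this length. The E′-box was in 1 member window and 4.68% of all, the D-box in 2 and 3.38%, the REV-ERB/ROR core in 4 (Per3, both of Arntl and 1 of Tef) and 11.0%, and the CRE in 1 and 1.79%. Counted from the start, the E-box of Per1 began at position -166 and its D-box at -24, and the D-boxes of Per3 began at -205 and -158. The windows of Arntl overlap each other and share REV-ERB/ROR cores, which were counted in each. The windows of Clock, Nr1d2 and Dbp held none of these letters, which says nothing of sites elsewhere in those genes. Every window shown overlapped an ATAC-seq peak in each of the 10 libraries.

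Of the 10 genes, the activators differed least in TPM between the 2 acutely isolated EC libraries, by 1.42-fold for Clock and 1.38-fold for Arntl. In counts corrected for depth, library 2 minus library 1 was -0.77 log2 units for Clock. That was a larger difference than for Arntl (-0.39), Tef (-0.40), Hlf (-0.59) and Nr1d1 (0.72). Clock (chr5:76209868-76304792, minus strand, GRCm38), which encodes the histone acetyltransferase partner of the dimer, was at 28.8 and 20.4 TPM in acutely isolated EC libraries 1 and 2 and at 8.94 and 15.1 TPM in GFP-negative libraries 1 and 2. In the WT cultures its TPM had a lowest value of 8.23, a median of 11.4 and a highest of 19.8, and in stabilized cultures 1 to 4 it was 23.9, 27.9, 17.3 and 14.9. Both acutely isolated libraries thus lay above every WT culture for Clock, while the stabilized cultures overlapped with both. Arntl (chr7:113207465-113314126, plus strand), its partner in the dimer, was at 6.77 and 9.31 TPM in acutely isolated ECs, 4.21 and 7.14 TPM in GFP-negative cells, 8.22 to 13.2 TPM (median 10.8) in WT cultures, and 16.9, 17.5, 7.13 and 6.10 TPM in stabilized cultures 1 to 4. For Arntl the groups overlapped, and the 2 stabilized wells of method A held more than any other library.

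The Per genes encode the repressors that close the loop, and their levels in the sorted cells differed widely between libraries 1 and 2. Per1 (chr11:69095217-69109960, plus strand) was at 1.80 and 9.43 TPM in acutely isolated ECs and at 2.70 and 4.85 TPM in GFP-negative cells. Per2 (chr1:91415982-91459324, minus strand) was at 0.0585 and 0.781 TPM in acutely isolated ECs and at 1.93 and 8.46 TPM in GFP-negative cells. Per3 (chr4:151003652-151044665, minus strand) was at 0.669 and 8.84 TPM in acutely isolated ECs and at 1.25 and 10.3 TPM in GFP-negative cells. For all 3 genes, library 2 was the higher one in both sorts on this scale. In WT cultures Per1 ran from 4.28 to 12.7 TPM (median 8.95), Per2 from 1.72 to 3.40 TPM (median 2.18) and Per3 from 0.716 to 1.65 TPM (median 0.939). In stabilized cultures 1 to 4, Per1 was at 7.88, 16.6, 9.10 and 7.94 TPM, Per2 at 2.84, 3.39, 1.99 and 1.96 TPM, and Per3 at 1.43, 1.41, 0.891 and 0.778 TPM. Per2 was lower in both acutely isolated libraries than in every culture. For Per3 one acutely isolated library lay below and the other above all 10 cultures, and for Per1 the groups overlapped.

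The REV-ERB genes encode the nuclear receptors that repress Arntl. Nr1d1 (chr11:98767932-98775333, minus strand) was at 21.5 and 63.8 TPM in acutely isolated ECs and at 11.2 and 34.3 TPM in GFP-negative cells. In WT cultures it ran from 2.84 to 17.4 TPM (median 6.04), and in stabilized cultures 1 to 4 it was at 7.34, 8.55, 4.15 and 3.25 TPM. Every culture was below both acutely isolated libraries for Nr1d1. The highest WT cultures were 3 and 4 (17.4 and 15.5 TPM), the 150-cycle wells. Nr1d2 (chr14:18204054-18239127, minus strand) was at 5.78 and 25.8 TPM in acutely isolated ECs and 41.9 and 28.3 TPM in GFP-negative cells. In WT cultures Nr1d2 ran from 7.14 to 15.2 TPM (median 13.0), and in stabilized cultures 1 to 4 it was at 12.5, 14.9, 8.64 and 7.27 TPM. All 10 cultures of Nr1d2 fell between the 2 acutely isolated libraries.

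Among the PAR bZIP factors, which carry the rhythm to output genes, Hlf was nearly silent in culture and Dbp showed the widest range in sorted cells. Dbp (chr7:45705088-45710203, plus strand) was at 2.68 and 89.9 TPM in acutely isolated EC libraries 1 and 2 and at 14.1 and 93.4 TPM in GFP-negative libraries 1 and 2. In WT cultures its TPM ran from 3.86 to 10.9 (median 7.36), and in stabilized cultures 1 to 4 it was 7.77, 6.88, 3.88 and 4.04. The 10 cultures lay above acutely isolated library 1 and far below library 2, so the groups overlapped. Hlf (chr11:90336536-90390895, minus strand) was at 4.06 and 10.8 TPM in acutely isolated ECs, 26.8 and 68.1 TPM in GFP-negative cells, 0.0577 to 0.624 TPM (median 0.222) in WT cultures and 0.116, 0.149, 0.225 and 0.281 TPM in stabilized cultures 1 to 4. No culture reached the level of either acutely isolated library. Tef (chr15:81802421-81826863, plus strand) was at 7.06 and 12.6 TPM in acutely isolated ECs, 7.96 and 18.4 TPM in GFP-negative cells, 12.5 to 25.1 TPM (median 19.6) in WT cultures, and 16.5, 16.8, 13.5 and 12.1 TPM in stabilized cultures 1 to 4. Acutely isolated library 2 of Tef lay just above the lowest WT culture, and library 1 lay below every culture.

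**Figure D1:**
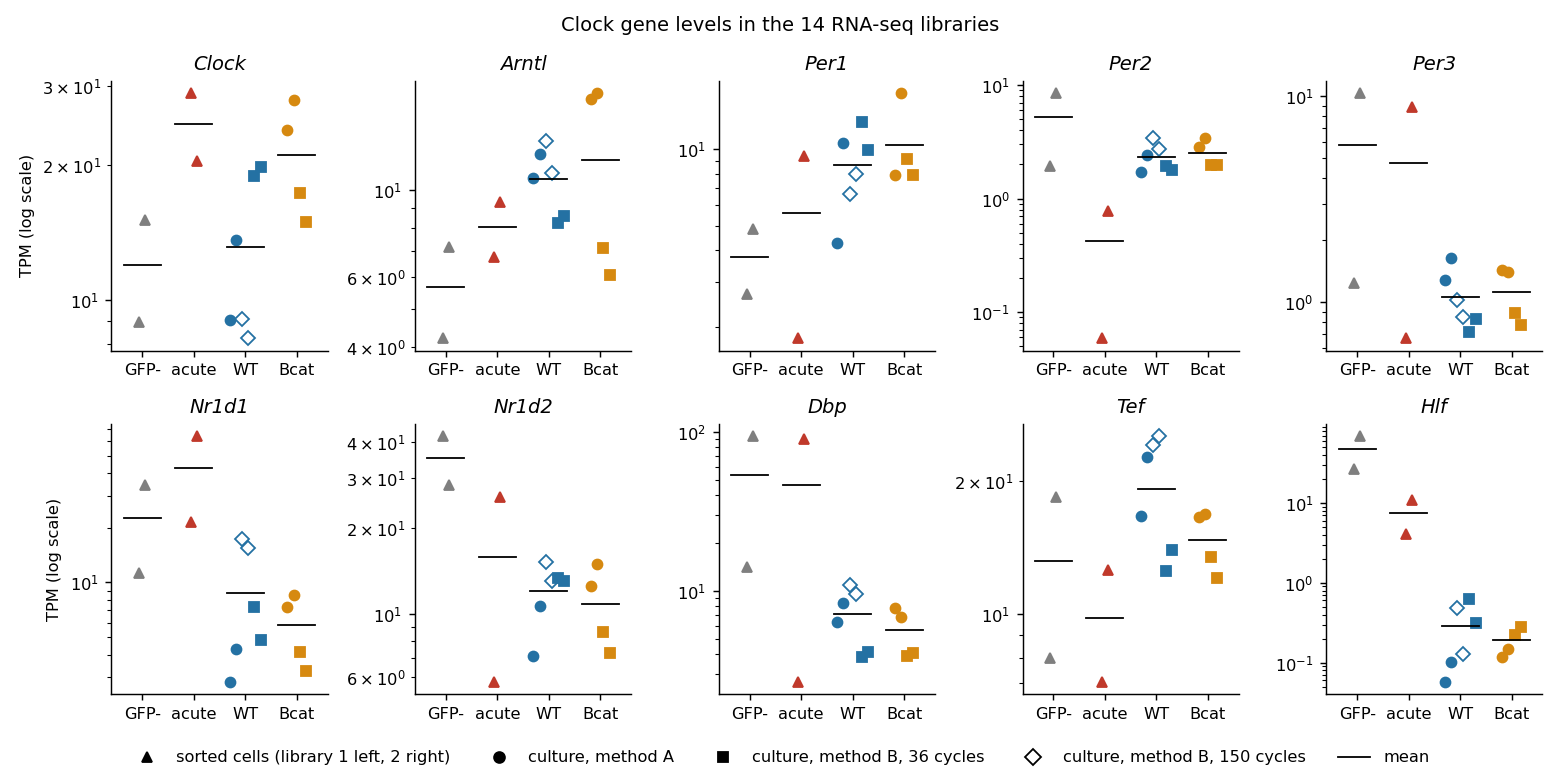
Level of each of the 10 clock genes in the 14 RNA-seq libraries, one panel per gene, on a log axis of TPM, with 1 point per library and a line at the mean of each group (GFP-, GFP-negative cells; acute, acutely isolated ECs; WT and Bcat, WT and stabilized cultures). Hlf is at 0.0577 to 0.624 TPM in the WT cultures against 4.06 and 10.8 TPM in the acutely isolated ECs, and the 2 sorted libraries of Dbp lie far apart (2.68 and 89.9 TPM in ECs).

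In the order of mean TPM, the acutely isolated ECs were led by Dbp (46.3 ± 61.6, SD, n = 2), Nr1d1 (42.7 ± 29.9) and Clock (24.6 ± 6.00), and Per2 came last (0.420 ± 0.511). The SD of Dbp exceeded its mean, so its place at the head rested on library 2, and on the mean of log2(TPM + 1) Nr1d1 and Clock stood ahead of it. In the WT cultures (n = 6) the order was Tef (19.2 ± 5.48), Clock (13.1 ± 5.19), Nr1d2 (12.1 ± 2.82), Arntl (10.7 ± 1.98), Nr1d1 (8.69 ± 6.21), Per1 (8.69 ± 3.01), Dbp (7.18 ± 2.89), Per2 (2.33 ± 0.652), Per3 (1.06 ± 0.350) and Hlf (0.284 ± 0.230). Neighbours in that order from Clock to Dbp differed by less than the larger of their SDs. In the stabilized cultures (n = 4) Clock (20.99 ± 5.95) stood ahead of Tef (14.7 ± 2.34), and the last 3 places were again those of Per2, Per3 and Hlf. In GFP-negative cells Dbp (53.7 ± 56.1, n = 2) and Hlf (47.4 ± 29.2) led and Per1 (3.77 ± 1.52) came last.

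The clearest variation among sorted cells was between library 1 and library 2 of the same sort. The count-based level (log2 CPM, counts corrected for depth and scaled by TMM) of Dbp was 4.29 log2 units higher in library 2 than in library 1 of acutely isolated ECs, and 2.21 units higher in library 2 of GFP-negative cells. For Per3 the same differences were 2.76 and 1.37. Ciart, a repressor of the dimer that is not among the 10 genes, differed by 3.94 and 3.48. Of the 10 genes, Dbp and Per3 were over 2-fold higher in library 2 in both sorts, against 2.44% of 15134 genes tested, and Dbp alone was over 4-fold higher in both, against 0.350%. For Per3 in GFP-negative cells this rested on a model with a retained intron, and in coding transcripts library 2 was 1.36-fold above library 1 in TPM. None of the 10 was over 2-fold higher in library 1 in both sorts, against 3.85%.

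Other members differed between the acutely isolated libraries but not alike in the GFP-negative ones. In acutely isolated ECs, Dbp, Per1, Per2, Per3 and Nr1d2 were over 2-fold higher in library 2, which is 5 of 10 against 12.5% of genes tested, and in GFP-negative cells only Dbp and Per3 were, against 10.2%. None of the 10 was over 2-fold higher in EC library 1, against 20.0%. The log2 difference of library 2 from library 1 was 2.91 for Per2 in ECs but -0.90 in GFP-negative cells (where 7.10 of its 8.46 TPM belonged to Per2-202, a transcript model of 231 bases). In the same order it was 1.54 and 0.29 for Per1, 1.23 and 0.03 for Nr1d2, and 0.72 and 0.73 for Nr1d1. For Tef it was -0.40 and 0.71 and for Hlf -0.59 and -0.92. Arntl, which is repressed by the REV-ERB proteins, differed by -0.39 and 0.03, and Clock by -0.77 and -0.10. Nfil3, which encodes a repressor at D-boxes, differed by -4.25 and -0.25. With 1 library on each side, these differences have no replicate and no test. Libraries 1 and 2 also differed in other ways, among them hemoglobin (0.329% and 2.13% in ECs) and the immediate early genes Fos and Fosb, which were 2.99 and 3.79 higher in EC library 2 and 0.21 and 0.72 higher in GFP-negative library 2 on the log2 scale. The part of these in the clock genes' values was not tested.

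**Figure D2:**
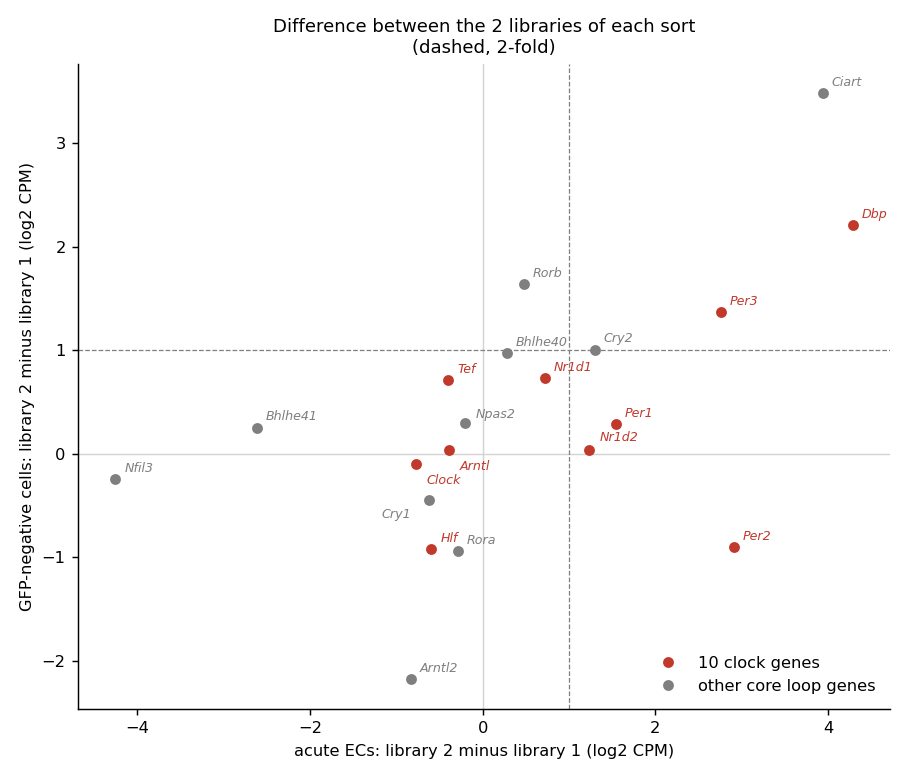
Difference of library 2 from library 1 (log2 CPM, TMM-scaled) in acutely isolated ECs (x axis) and in GFP-negative cells (y axis), 1 point per gene, for the 10 clock genes and the other core loop genes, with dashed lines at 2-fold. Dbp (4.29 and 2.21) and Per3 (2.76 and 1.37) lie beyond both lines, and Arntl, Clock and Hlf lie left of 0 on the x axis.

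Levels per gene in the sorted cells depended on which annotated transcripts were counted. The values above sum every transcript of a gene, and in the sorted cells a large part was assigned to short models or models with a retained intron. For Dbp, the retained-intron model Dbp-202 (815 bases) held 76.5 of the 93.4 TPM in GFP-negative library 2 and 42.7 of the 89.9 TPM in acutely isolated library 2, and the full coding model Dbp-201 held 14.3 and 9.18 TPM there. Dbp-203, a further coding model, was at 34.0 TPM in acutely isolated library 2 and at no more than 0.0671 TPM in any other library. Dbp-201 alone was still higher in library 2 of both sorts (9.18 against 1.12 TPM in ECs, 14.3 against 1.24 TPM in GFP-negative cells). For Per3, the retained-intron model Per3-202 was at 6.50 and 6.60 TPM in library 2 of GFP-negative cells and ECs, and at 0.362 TPM or less elsewhere. The coding model Per3-201 was at 0.102 and 2.05 TPM in the acutely isolated libraries, and coding transcripts of Per3 summed to 1.02 and 1.38 TPM in GFP-negative libraries 1 and 2. The wide gap between libraries thus remained in ECs and was small in GFP-negative cells.

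For Clock the choice of transcripts reversed the order of the acutely isolated and WT culture groups in TPM. The fit on counts of coding transcripts, given below, kept a negative log2 fold change in WT culture. The retained-intron model Clock-206 was at 24.0 and 12.0 TPM in acutely isolated ECs and at 0 to 1.12 TPM in the cultures. In coding transcripts alone, Clock was at 4.66 and 6.53 TPM in acutely isolated ECs and at 7.20 to 18.9 TPM in WT cultures, so that the acutely isolated cells were below every culture rather than above every WT culture. For Hlf in GFP-negative cells, a processed transcript of 245 bases (Hlf-205) held 19.2 and 59.3 TPM, and the coding transcripts held 7.35 and 3.20 TPM. Per2-202, of 231 bases, was at 7.10 TPM in GFP-negative library 2 and at 0 in every other library. Hlf in acutely isolated ECs kept 4.06 and 2.50 TPM in coding transcripts, still above every culture.

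Transcript models of Per1 and Arntl separated sorted from cultured cells. Per1-206 (4636 bases) was at 1.25 to 6.97 TPM in the 4 sorted libraries and at 0 in all 10 cultures, whereas Per1-201 (4671 bases) was at 0 in the 4 sorted libraries and at 1.56 to 6.36 TPM in the cultures. Both are annotated as coding and have similar lengths. Arntl-201 was at 5.56 to 16.0 TPM in the cultures and at 0 to 0.649 TPM in the sorted cells, where Arntl-203 (2.31 to 5.12 TPM) and Arntl-206 (1.14 to 4.52 TPM) held most of the reads. Single reads of 75 cycles and paired reads cannot be told apart from culture here. Nr1d1 was assigned to Nr1d1-201 in all groups, which held 63.0 of 63.8 TPM in acutely isolated library 2.

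**Figure D3:**
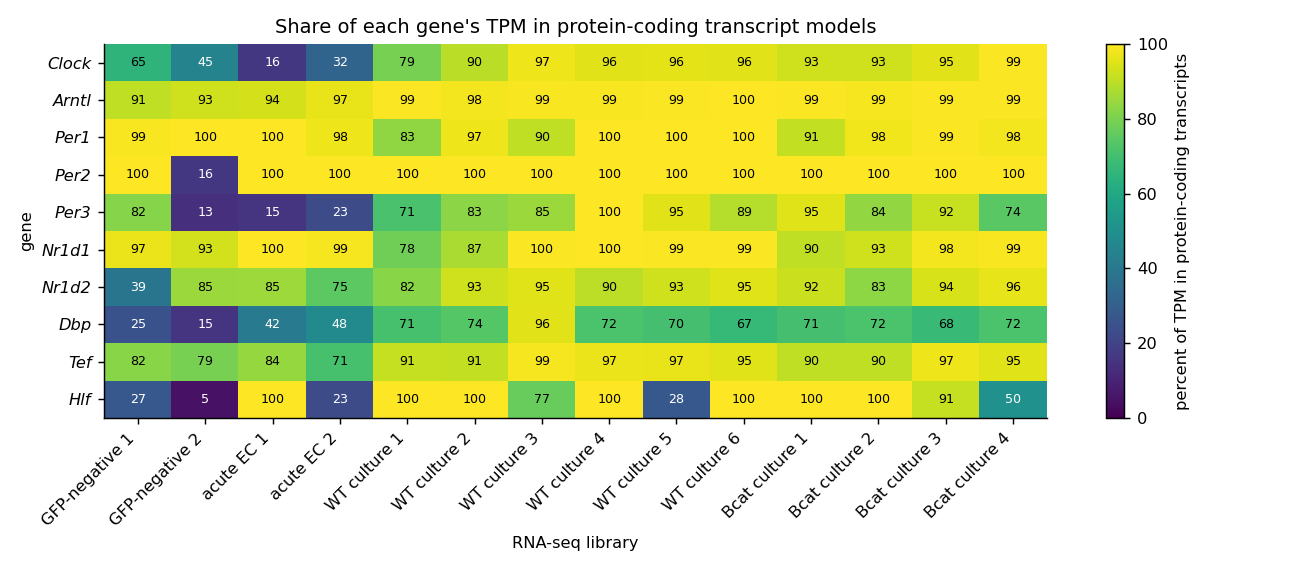
Percent of the TPM of each clock gene that was assigned to protein-coding transcript models, for each RNA-seq library (columns; Bcat, stabilized cultures), written in each cell and shown by color. For Clock the share is 16.2% and 32.1% in the acutely isolated ECs and at least 79.4% in every culture.

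The effect of culture was tested by comparing the 6 WT cultures with the 2 libraries of acutely isolated ECs, with edgeR's quasi-likelihood test on summed counts and Benjamini-Hochberg adjustment over 13785 genes. Of the 10 clock genes, 5 passed an adjusted p of 0.05 as lower in culture and none as higher, against 21.3% and 23.9% of all genes tested. DESeq2 gave the same 2 counts, and none of the 10 was higher at an unadjusted p under 0.05. The log2 fold change was -6.18 ± 0.59 (SE) for Hlf (adjusted p = 1.52e-04) and -3.35 ± 0.44 for Nr1d1 (adjusted p = 6.17e-04). Dbp (log2 fold change -2.61 ± 0.76, adjusted p = 0.0207), Nr1d2 (-1.32 ± 0.38, adjusted p = 0.0196) and Per3 (-1.95 ± 0.69, adjusted p = 0.0455) also passed. With the further requirements of a change over 2-fold and 5 TPM in both acutely isolated libraries, Nr1d1 and Nr1d2 were called lower, against 10.2% of genes. Per1 (-1.13, adjusted p = 0.164), Per2 (1.33, adjusted p = 0.157), Clock (-0.89, adjusted p = 0.225), Arntl (-0.05 ± 0.40, adjusted p = 0.929) and Tef (-0.02 ± 0.33, adjusted p = 0.969) did not pass. The median log2 fold change was -1.23 over the 10 genes and 0.10 over all genes tested.

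Of these 5, Hlf and Nr1d1 passed whichever acutely isolated library was left out. Without library 2, the log2 fold change of Dbp was 0.84 (adjusted p = 0.30), that of Per3 0.08 (adjusted p = 0.94) and that of Nr1d2 -0.53 (adjusted p = 0.31), so that these rested on library 2, while Hlf (-6.43) and Nr1d1 (-2.89) remained lower. Per2 then passed as higher in culture (3.52, adjusted p = 0.0065). Without library 1, Dbp was at -3.57. In TPM, where transcript length is taken into account, both acutely isolated libraries were above all 6 WT cultures for Hlf, Nr1d1 and Clock, against 16.3% of genes tested, and below them for Per2, against 32.1%. With effective length as an offset in the fit, Per2 passed as higher (2.096, adjusted p = 0.041), Nr1d2 did not pass (-0.79, adjusted p = 0.19) and Per1 changed sign (0.34). The sum of coding transcripts alone gave Clock a log2 fold change of -0.51. In TPM of those transcripts, both acutely isolated libraries were instead below every WT culture. Against the same acutely isolated libraries, the method A wells alone gave -6.89 for Hlf and -4.29 for Nr1d1 and the method B wells of 36 cycles -5.27 and -3.07, all past an adjusted p of 0.05, whereas Dbp (-2.07 and -2.84) and Per3 (-1.30 and -1.98) did not pass in either set of 2 wells. Clock passed as lower in the method A wells (-1.04, adjusted p = 0.0421) and was at -0.14 in those of method B.

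**Figure D4:**
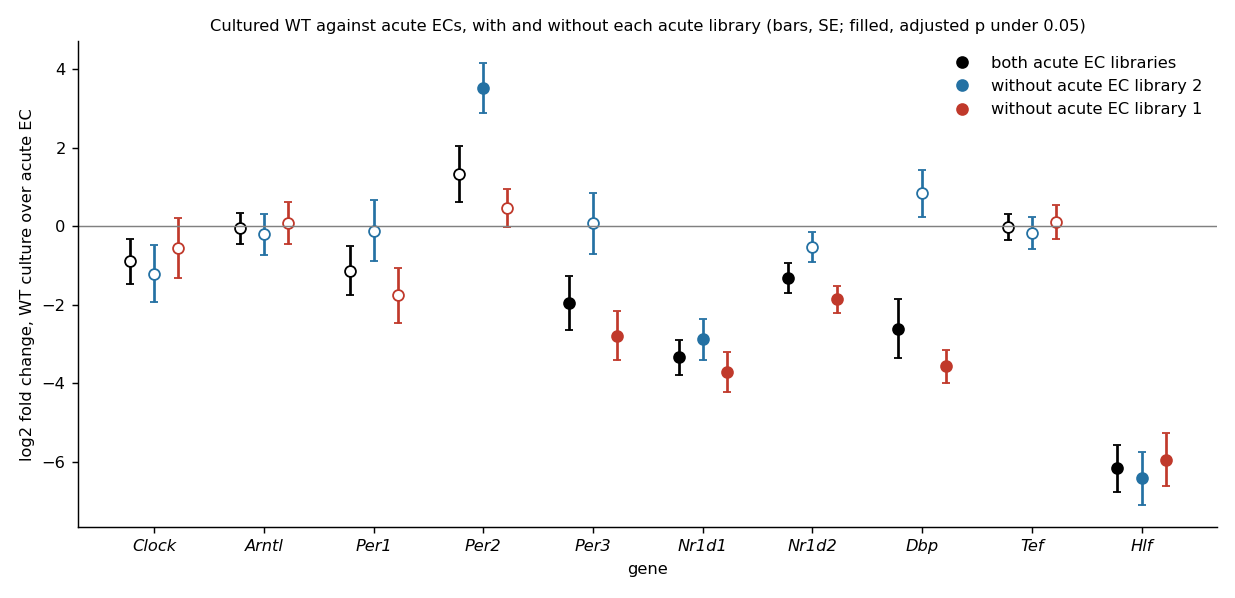
Log2 fold change of each clock gene in WT cultures over acutely isolated ECs with both acutely isolated libraries and with each of them left out, with SE bars and filled points where the adjusted p by edgeR is under 0.05. Hlf and Nr1d1 lie below 0 in all 3 fits, while Dbp moves from -2.61 to 0.84 and Per3 from -1.95 to 0.08 without library 2.

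The stabilized cultures were compared with the same 2 acutely isolated libraries, so this comparison is not independent of the one above. Again 5 of the 10 genes passed as lower and 0 as higher by edgeR (27.8% and 28.9% of 13890 genes tested), DESeq2 gave 5 and 1 (Per2, 1.54, adjusted p = 0.0461), and Nr1d1 and Nr1d2 were called (11.0%). The log2 fold changes were -5.96 ± 0.54 for Hlf (adjusted p = 3.35e-04), -3.68 ± 0.25 for Nr1d1 (adjusted p = 1.36e-04), -2.72 ± 0.89 for Dbp (adjusted p = 0.0368), -1.90 ± 0.64 for Per3 (adjusted p = 0.0414) and -1.68 ± 0.33 for Nr1d2 (adjusted p = 0.0055). Tef (-0.28), Per1 (-0.76), Per2 (1.60), Arntl (0.06) and Clock (-0.48) did not pass. In TPM all 4 stabilized cultures were below both acutely isolated libraries for Hlf and Nr1d1, against 17.7% of genes, and above them for Per2, against 38.7%. Without acutely isolated library 2, Dbp was higher in the stabilized cultures (0.78, adjusted p = 0.025) and Per3 was at 0.19.

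In acutely isolated ECs against GFP-negative cells, none of the 10 genes passed in either direction by edgeR, against 9.92% of 15102 genes as higher and 19.7% as lower. None of the 10 had an unadjusted p under 0.05, none passed with DESeq2, and none was called (8.29% of genes higher and 7.56% lower). In TPM the 2 groups did not overlap for Clock, which was higher in ECs (20.1% of genes tested were), and for Hlf, Per2 and Nr1d2, which were lower (37.1%). In coding transcripts alone the groups overlapped for Clock (4.66 and 6.53 TPM in ECs, 5.80 and 6.77 in GFP-negative cells), Hlf (4.06 and 2.50, 7.35 and 3.20) and Nr1d2 (4.94 and 19.3, 16.2 and 24.0), and of these 4 only Per2 remained apart. The largest fitted differences were those of Per2 (-1.84 ± 1.02, adjusted p = 0.229), Nr1d1 (0.82 ± 0.43, adjusted p = 0.21), Clock (0.68 ± 0.35, adjusted p = 0.206) and Per1 (0.67 ± 0.60, adjusted p = 0.447). The SE of Dbp was 1.29 around a difference of 0.11, so that with 2 libraries per group a difference of several fold would not have passed for this gene. With effective length as an offset, Hlf passed as lower in ECs (-2.52, adjusted p = 0.039), and with coding transcripts only it was at -0.43 (adjusted p = 0.72).

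Among cultures, the clock genes varied between experiments, as most genes did. In the 6 WT cultures, all 10 genes differed between the 3 experiments at an adjusted p of 0.05 by edgeR, against 89.8% of 13051 genes tested, and 7 of them differed by over 2-fold between the highest and the lowest experiment (all but Tef, Per2 and Nr1d2), against 58.1%. The range over experiments was 2.02 log2 units for Clock, 1.95 for Per1, 1.84 for Per3, 1.78 for Hlf, 1.30 for Nr1d1, 1.18 for Arntl and 1.11 for Dbp. The share of clock genes is close to the share of all genes. In TPM, Clock was at 18.9 and 19.8 in the method B wells of 36 cycles and at 8.23 to 13.6 in the other 4 WT wells, and Nr1d1 was at 17.4 and 15.5 in the 150-cycle wells and at 2.84 to 7.27 in the others. Within an experiment the TPM of the 2 wells differed by up to 2.47-fold for Per1 in WT cultures 1 and 2 and by up to 3.79-fold for Hlf in cultures 3 and 4, where Hlf was near 0. For Per1 the mean TPM differed by 1.55-fold between the WT experiments. In TPM the wells of WT cultures 1 and 2, and those of stabilized cultures 1 and 2 (2.102-fold), thus lay further apart than the experiments did. By counts they did not, with the range of 1.95 log2 units over experiments. WT cultures 1 and 2 held 386 and 804 Per1 counts at depths of 24284843 and 33382007, and stabilized cultures 1 and 2 held 1590 and 1756. The short model Per1-204 (496 bases) took 29.2% and 56.4% of Per1 TPM in those WT wells and 0% and 39.4% in those stabilized wells.

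Isolation method was compared in the 8 cultures of 36 cycles with genotype as a covariate. Arntl was higher in method A (0.35), and Hlf (-1.53), Per1 (-0.57), Clock (-0.56) and Nr1d2 (-0.41) were lower, each at an adjusted p under 0.05 by edgeR. That is 1 of 10 higher and 4 of 10 lower, against 27.5% and 27.8% of 13357 genes, and none was called under the fold and TPM limits (3.68% higher and 3.51% lower). Method A and method B cultures of WT also differed in strain, so the method cannot be told apart from the strain in those wells. In mean TPM the direction for 3 of these genes depended on genotype. Clock was at 11.4 in method A and 19.4 in method B wells of WT but at 25.9 and 16.1 in stabilized wells, Nr1d2 at 8.88 and 13.2 but at 13.7 and 7.96, and Per1 at 7.42 and 11.3 but at 12.2 and 8.52.

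Stabilization of beta-catenin was tested by comparing the 4 stabilized with the 6 WT cultures. None of the 10 genes passed in either direction by edgeR, and neither did any of the 12959 genes tested (0.00%). No clock gene had groups that did not overlap in TPM (0.440% of genes were higher and 0.286% lower in that sense). At an unadjusted p under 0.05 there were 0 clock genes and 1421 genes in all, and DESeq2 called 14 genes higher and 3 lower, none of them a clock gene. Within one method the wells were closer to each other, and more genes passed. In method A, Tef was lower in the stabilized wells (-1.03 ± 0.07, adjusted p = 4.90e-04), as were Per3 (-0.73, adjusted p = 0.0049) and Dbp (-0.72 ± 0.13, adjusted p = 0.0040). Nr1d1 (0.58, adjusted p = 0.017), Per1 (0.46, adjusted p = 0.030) and Clock (0.40, adjusted p = 0.014) were higher. In mean TPM, the 3 falls were small or not seen: Dbp was at 7.36 in WT and 7.32 in stabilized wells of method A, Per3 at 1.47 and 1.42, and Tef at 19.6 and 16.7. Clock rose more on that scale (11.4 to 25.9), and Arntl, which did not pass, was at 11.5 and 17.2. The genes past the test by counts were 3 of 10 in each direction, against 29.3% of genes tested as higher and 26.8% as lower, so the clock genes passed about as often as other genes. Tef alone was called, as lower (0.918% of genes), and none was called as higher (5.38%). In method B at 36 cycles, Nr1d2 (-0.67, adjusted p = 7.17e-04), Arntl (-0.24, adjusted p = 0.027) and Clock (-0.19, adjusted p = 0.038) were lower, which is 3 of 10 against 17.1% of genes, and Dbp (0.16) and the others did not pass, against 19.9% of genes that passed as higher. No clock gene was called there (1.08% of genes higher and 0.288% lower).

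The effect of stabilization differed between methods for 8 of the 10 genes by the interaction term, against 49.9% of 13357 genes. The effect in method A minus that in method B was -1.08 for Tef, -0.90 for Per3, -0.87 for Dbp and -0.40 for Per2, and 1.18 for Nr1d1, 0.74 for Per1, 0.60 for Clock and 0.51 for Nr1d2. For Hlf and Arntl the term did not pass. Clock was higher in stabilized wells of method A and lower in those of method B, with both differences past the test. Each method has 1 experiment of 2 wells per genotype, so preparation, genotype and, in method A, strain cannot be told apart.

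Other genes of the clock were tested in the same fits. Of 10 further genes of the core loops, 3 passed as lower in WT cultures than in acutely isolated ECs and 1 as higher (21.3% and 23.9% of all genes did), with a median log2 fold change of -0.81. Rora, which encodes an activator of Arntl that competes with the REV-ERB proteins, fell by 2.72 on the log2 scale. Bhlhe40, a repressor at E-boxes, fell by 1.59. Rorb fell by 4.64 from levels already near 0 (0.0649 and 0.157 TPM in acutely isolated ECs, 0.00706 to 0.0584 TPM in WT cultures). Bhlhe41, the close relative of Bhlhe40, rose by 4.41 from 0.0418 and 0.131 TPM in acutely isolated ECs to 0.913 to 3.78 TPM in WT cultures. Cry1, Cry2, Nfil3, Ciart, Npas2 and Arntl2 did not pass. In the stabilized cultures, against the same acutely isolated libraries, the log2 fold changes were -2.20 for Rora, -1.04 for Bhlhe40 and 6.04 for Bhlhe41.

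Of 11 modifiers and co-repressors of clock proteins, 1 passed as higher and 4 as lower in WT cultures, against 23.9% and 21.3% of all genes. Ncor1, a co-repressor used by the REV-ERB proteins, fell by 2.52 on the log2 scale, Timeless by 2.83, the kinase gene Gsk3b by 1.77 and Btrc, which encodes a ubiquitin ligase subunit that acts on PER proteins, by 1.22. In TPM, Gsk3b was at 22.5 and 45.5 in acutely isolated ECs and 4.68 to 28.8 in WT cultures, so the groups overlapped. So did those of Btrc (7.62 and 15.3 against 4.19 to 17.2), whereas those of Ncor1 and Timeless did not. Hdac3, the deacetylase that works with NCOR1, rose by 2.30. The median of the list was -0.23. Of 3 output genes, Nampt (-2.62) and Usp2 (-2.51) were lower and Wee1 (2.36), a mitotic kinase gene, was higher. Wee1 was at 0.980 and 1.51 TPM in acutely isolated ECs and at 3.28 to 38.7 TPM in WT cultures.

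The medium of the cultures held hydrocortisone and serum, and genes induced by such signals were counted beside the clock. Of 5 glucocorticoid-induced genes, 2 passed as higher in WT cultures, against 23.9% of all genes, with Fkbp5 at 5.34 and Sgk1 at 2.57 on the log2 scale. Klf9 of that list went the other way, at 51.1 and 82.6 TPM in acutely isolated ECs and 14.4 to 39.2 TPM in WT cultures (log2 fold change -1.64, adjusted p = 0.0611), and it passed as lower in stabilized cultures (-1.50, adjusted p = 0.0054). Per1 is itself a target of the glucocorticoid receptor, and it did not pass. Of 7 immediate early genes, Egr1 (-2.39), Ier2 (-1.17) and Nr4a1 (-3.69) passed as lower. In TPM only Nr4a1 of these 3 was lower in every WT culture. Ier2 was at 33.2 and 32.3 TPM in acutely isolated ECs against 16.9 to 100.1 (mean 46.7) in WT cultures, and Egr1 at 16.3 and 49.2 against 6.12 to 62.4. Of 4 proliferation genes, Cdk1, Ccnb1 and Top2a passed as higher. The part of medium, of dissociation and of growth in the clock genes' values was not tested.

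At their starts the clock genes had open chromatin in acutely isolated and in cultured cells. Of 20259 genes, whether or not expressed here, 50.2% had a peak within 500 bases of a start in each of the 10 ATAC-seq libraries. All 10 clock genes, which had all passed the filter on low counts, had such a peak in each library. This held for Hlf, whose transcript was near 0 in culture: the fold enrichment of its start peak over local background was 15.9 and 17.6 in acutely isolated ECs, 9.89 to 18.0 in the 6 WT cultures and 13.56 and 14.04 in the 2 stabilized cultures. For Dbp it was 9.33 and 8.58, 8.59 to 11.4, and 10.9 and 10.9 in the same groups. Nr1d1 was at 7.50 and 6.87 in acutely isolated ECs and 4.83 to 7.26 in WT cultures, and Per1 was at 4.29 to 5.59 over all libraries. For Nr1d2 the higher acutely isolated library (11.06) lay just under the lowest WT culture (11.13), and the highest WT culture was at 13.8. Peaks were called by the authors in each library on its own, 31844 to 98840 per library, so that presence and height also move with depth.

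**Figure D5:**
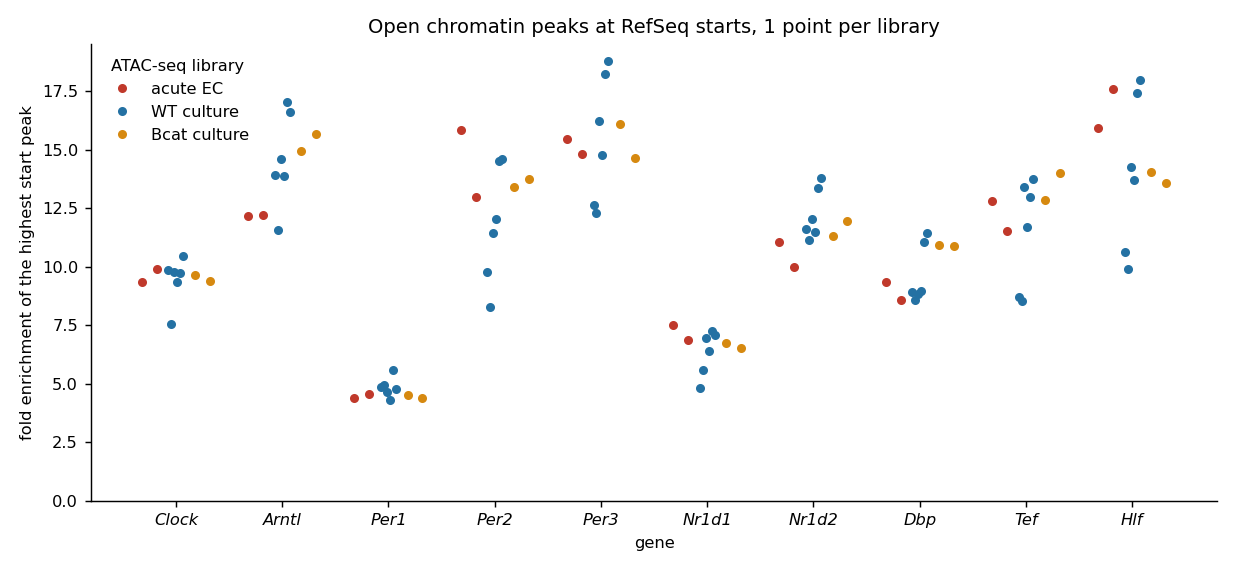
Fold enrichment over local background of the highest ATAC-seq peak within 500 bases of a RefSeq start of each clock gene, 1 point per library, for acutely isolated ECs, WT cultures and stabilized (Bcat) cultures. Every gene has a peak in all 10 libraries, and the points of Hlf lie at 9.89 to 18.0 in WT cultures and at 15.9 and 17.6 in acutely isolated ECs.

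From 10000 bases upstream of the start to the end of each gene, the peaks of all libraries merged into 77 regions at the 10 genes. These windows take in the start peaks of every gene, whereas the genome-wide shares cover regions at any distance from a gene. Of the 77 regions, 21 were present in all 10 libraries (27.3%, against 13.4% of 126224 regions in the genome). Another 1 was present in both acutely isolated libraries and no culture (1.30%, against 2.84%). In every culture and neither acutely isolated library there were 0 (against 8.01%). Close to that limit, the regions found in 7 of the 8 cultures and in neither acutely isolated library lay in Nr1d2 (chr14:18204275-18204861), Arntl (chr7:113214185-113214924 and chr7:113260451-113260835), Clock (chr5:76280775-76281200), Per2 (chr1:91456470-91456846 and chr1:91458259-91458672) and Nr1d1 (chr11:98772840-98773209). The one in Nr1d2 had a fold enrichment of 6.91 to 24.0 where present. The genome-wide share for this looser rule was not counted. Among cultures, the regions in Nr1d2, Clock and Nr1d1 and the first in Arntl and in Per2 were absent only from WT culture 2. That library had 33122 peaks past the filter, the fewest of the cultures, and WT culture 1, also of method A, had 50395. Other regions were in WT cultures 3 to 6 and both stabilized cultures, all of method B, and in no other library. They lay in Hlf (chr11:90352719-90353288, fold enrichment 8.89 to 15.4, and chr11:90355232-90355805), Dbp (chr7:45704246-45704544), Nr1d2 (chr14:18210817-18211125) and Arntl (chr7:113220855-113221192 and chr7:113311833-113312147). Their genome-wide share was not counted either. Heights also differed at some regions present in all libraries. In an intron of Tef (chr15:81805558-81806100) the fold enrichment was 2.64 and 2.22 in acutely isolated ECs and 4.64 to 7.13 in the cultures, and in an intron of Arntl (chr7:113241680-113243061) it was 3.26 and 2.88 against 4.52 to 12.5, whereas at one start of Tef (chr15:81802244-81802930) it was 12.8 and 11.5 against 7.48 to 10.02. The single region of the acutely isolated cells lay in an intron of Dbp and is shown for that reason, on the plus strand of GRCm38.p6:
Dbp intron, chr7:45705914-45706185: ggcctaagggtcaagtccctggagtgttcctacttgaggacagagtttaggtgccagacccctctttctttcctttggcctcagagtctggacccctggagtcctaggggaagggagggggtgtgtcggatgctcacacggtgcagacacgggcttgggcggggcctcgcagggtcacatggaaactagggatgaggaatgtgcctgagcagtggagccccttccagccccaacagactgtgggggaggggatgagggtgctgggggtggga
Its fold enrichment was 2.59 and 3.03 in acutely isolated libraries 1 and 2, low beside the start peak, and it held none of the 5 motifs in its 272 bases. In windows of that length at 125880 regions, an E-box was found in 4.57%, an E′-box in 4.18%, a D-box in 4.04%, a REV-ERB/ROR core in 11.6% and a CRE in 0.694%. A region in an intron of Hlf (chr11:90379710-90380410) was present in both acutely isolated libraries, in none of the 6 WT cultures and in 1 of the 2 stabilized cultures.

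The genes whose levels followed those of Dbp and Arntl most closely were taken as a description, by Pearson's r of log2(TPM + 1). Over the 10 cultures, which are 5 experiments of paired wells, the nearest of 8317 genes to Dbp were Lztr1 (r = 0.993), Pigx (0.991), Nsmf (0.991), Ccdc32 (0.990) and Dvl1 (0.988), and the nearest clock gene was Tef (0.945). The nearest to Arntl were Secisbp2 (0.990), Foxc1 (0.990), Rint1 (0.988), Plvap (0.986) and Amotl2 (0.983). Over all 14 libraries the nearest of 8748 genes to Dbp were Ttc30b (0.941), Zfp12, Hdac8, Lonp2 and Parp6 (0.926), and Per3, whose mean TPM was under the limit of 5 for this list, reached 0.951. For Arntl they were Rint1 (0.978), Zfp143, Galnt18, Sppl2a and Erich1 (0.955). The points share experiment, read length and facility, and, for Dbp over 14 libraries, the height of the sorted libraries 2.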

How the data were processed

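RNA-seq was measured in 14 libraries and ATAC-seq in 10, grouped by the titles and genotypes of the records, with isolation method and read length from the study's methods (for WT cultures 5 and 6 a legend gives method A instead). A further 6 samples of cerebrum alone were not analysed here. Per the labels and methods, the authors quantified reads with Salmon 0.14.0 on GENCODE M21 transcripts (GRCm38), and the deposited files hold per transcript an estimated count, not normalized, and TPM, which the authors scaled to one sum per library after division by effective length (also deposited, in bases). Data of cerebrum and cerebellum were combined for sorted cells. For ATAC-seq the authors aligned with HISAT2 2.1.0 and called peaks per library with MACS2 2.1.2, and the deposited lists hold a fold enrichment over local background, −log10 p, −log10 q and a score (10 times −log10 q). Peaks with a fold over 2 and −log10 q over 2 were used.

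Per protein-coding symbol, counts and TPM of all transcripts were added up and counts were rounded. Genes were tested with edgeR 4.0.16 in R 4.3.3 (TMM, filterByExpr, quasi-likelihood test, Benjamini-Hochberg adjustment over all genes tested), in place of the tool the study used, at its limits: adjusted p under 0.05, over 2-fold, and at least 5 TPM in every library of the higher group. Here "passed" means the adjusted p alone and "called" all 3 limits. DESeq2 1.42.0 was an alternative, beside other scaling, filters, a length offset, subsets of cultures, left-out libraries and, chosen after seeing the data, coding transcripts only. The procedure was tested on simulated data. Counting error was not weighed apart from the spread between libraries, and it is large for Hlf, with 8 to 17 counts in WT cultures 1 to 4. The genes named are the 10 clock genes, 6 lists of 40 related genes (1 further gene of the fixed lists is not reported here) and the 5 genes most like Dbp or Arntl (mean TPM of at least 5). The clock genes and lists were chosen with earlier results of these data known. Stabilized replicate 4 is recorded with genomic DNA as its molecule; its title and protocol were followed.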

Additional observations from a re-analysis of the deposited data

Results flagged for a closer look

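For 8 of the clock genes the effect of stabilization differed between isolation methods in a test of the interaction. The log2 effect in method A minus that in method B was -1.08 for Tef, -0.90 for Per3, -0.87 for Dbp, -0.40 for Per2, 0.51 for Nr1d2, 0.60 for Clock, 0.74 for Per1 and 1.18 for Nr1d1. The background share of genes past this test was 49.9%, and each method holds 1 experiment per genotype.

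In TPM, Per1 in the stabilized cultures had 1 well far from the other 3. Replicate 2 was at 16.6 TPM against 7.88 to 9.10 in the others, and the gap took 0.86 of the range of the group. Replicate 1, the other well of that experiment, was at 7.88 TPM. In estimated counts no well stood apart. Replicates 1 to 4 held 1590, 1756, 1909 and 1812 counts of Per1, at depths of 53213098 to 61342434. The short coding model Per1-204 (496 bases) took 0% of the TPM of Per1 in replicate 1 and 39.4%, 43.2% and 42.7% in replicates 2 to 4. Of 30 groups of 4 to 10 libraries examined in this way, 1 stood out. Chance alone flags about 1 group in 20 where values are independent, so 1 of 30 is no more than chance gives. The wells of a culture group come in pairs from 1 experiment and are not independent.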

How the results depend on the processing

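Hlf and Nr1d1 were lower in WT and in stabilized cultures than in acutely isolated ECs, at an adjusted p under 0.05, in every alternative run, and Dbp, Per3 and Nr1d2 were not. For WT cultures against acutely isolated ECs, the number of clock genes past the test as lower, 5 by the reported fit, was 3 with a replicate block and in method A wells alone, and 2 with the 36-cycle cultures, the method B wells of 36 cycles or the wells of each experiment summed. It was 1 as higher with a length offset or the replicate block. Leaving out 1 library gave 2 to 5 lower and 0 to 1 higher. Without a TPM minimum 3161 genes were called higher and 2826 lower, and summed wells gave 835 lower. Genes near 0 changed sign. Tef was at 0.21 with library size scaling only, 0.40 with the length offset, 0.37 with the replicate block, 0.18 with the 36-cycle cultures, 0.36 with method A and 0.067 with summed wells. Arntl was at 0.16 with library size only, 0.35 with the block, 0.23 with the 36-cycle cultures, 0.34 with method A, 0.11 with method B and 0.020 with summed wells, and Per1 was at 0.34 with the length offset. With 1 library left out, Dbp ranged from -3.57 to 0.84, Per3 from -2.79 to 0.082, Arntl from -0.20 to 0.081 and Tef from -0.17 to 0.11. Scaling by library size only moved the median of all genes from 0.10 to 0.30, and in acutely isolated ECs against GFP-negative cells from -0.06 to -0.44.

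For stabilized cultures against acutely isolated ECs, 3 clock genes were lower with the replicate block, with coding transcripts only and with summed wells, and 2 in method A or method B alone. The number higher was 1 with DESeq2, the length offset and the block. Leaving out 1 library gave 3 to 6 lower and 0 to 2 higher, with Dbp from -3.66 to 0.78, Per3 from -2.72 to 0.19, Per1 from -1.36 to 0.32 and Arntl from -0.049 to 0.20. Without a TPM minimum 3408 genes were called higher and 3209 lower. Tef was at 0.090 and Per1 at 0.50 with the length offset. Arntl was at -0.12 with that offset, -0.0073 with DESeq2, -0.027 with coding transcripts and -0.17 in method B.

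For acutely isolated ECs against GFP-negative cells, Dbp was at -0.20 with library size only, -0.17 with the length offset and -0.76 with the replicate block. With the length offset 1 clock gene passed as lower and 673 genes were called higher, and without a TPM minimum 2978 were called lower. Leaving out 1 library gave 660 to 1664 genes called higher and 0 to 1 clock genes lower, with Dbp from -3.36 to 1.62, Hlf from -0.65 to 0.25, Nr1d2 from -1.20 to 0.023, Per1 from -0.38 to 1.16, Per3 from -2.45 to 0.47 and Tef from -0.51 to 0.23.

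For stabilized against WT cultures, genes called higher and lower were 14 and 3 with DESeq2, 143 and 44 with the replicate block, 691 and 118 in method A, 139 and 37 in method B, and 66 and 10 with method as a block, against 0 by the reported fit. Clock genes past the test were 3 higher and 3 lower in method A, 3 lower in method B and 1 lower with method as a block. Log2 effects that changed sign were Dbp 0.16, Tef 0.053, Per1 -0.27 and Clock -0.19 in method B, Per2 -0.19 and Nr1d1 0.58 in method A, and Hlf -0.37 with the length offset, -0.11 with the 36-cycle cultures, -0.051 in method A, -0.086 in method B and -0.084 with method as a block. Per3 was at -0.036 with library size only, -0.0062 with the length offset, -0.32 with the 36-cycle cultures, -0.73 in method A and -0.28 with method as a block, and Arntl at -0.19, -0.12, -0.24 and -0.19 with the 36-cycle cultures, method A, method B and method as a block. With 1 library left out, Arntl ranged from -0.044 to 0.21, Dbp from -0.24 to 0.046, Hlf from -0.066 to 0.54 and Per3 from -0.13 to 0.24. Between methods A and B, scaling by library size only gave Tef 0.050 and Per2 0.0016 and left 2 clock genes lower, and leaving out 1 library gave Tef from -0.25 to 0.06, 1 to 2 clock genes higher and 2 to 4 lower. The cause of these shifts was not tested.

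Replicate numbers were not taken as pairs in the reported fits. Deviations of same-numbered libraries correlated at 0.064 between acutely isolated ECs and GFP-negative cells (15134 genes). With 1 difference per sort, that value cannot decide whether the numbers correspond. Between WT and stabilized replicates 1 to 4 the correlations were 0.54, 0.53, -0.0022 and 0.055 (12937 genes). Replicates 1 and 2 of both genotypes came by method A.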
